A study of Homo sapiens with 18 samples.

Results

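RNA polymerase III and the factors that set its activity were described through 10 genes of the 60623 in the gene table: MAF1, the TFIIIB genes BRF1, BRF2 and BDP1, and the polymerase subunit genes POLR3A, POLR3B, POLR3C, POLR3D, POLR3E and POLR3G. They were chosen by symbol with earlier results of these data known, so their counts beside those of all genes are a description. All 10 were among the 16414 genes with enough counts to be tested. RNA was sequenced from HEK-293E cells, a human embryonic kidney cell line, in 18 libraries that form 6 groups of 3. All cells had been kept overnight in low-serum medium, which is here called starved, and were then either left so, or fed with full growth medium for 1 h or for 4 h. Each of these 3 states was sampled without and with Torin1, an ATP-competitive inhibitor of the kinase mTOR, with its dose and duration not given in the sources used here. The labels do not say whether the 3 libraries of a group came from separate cultures, so p values measure only the spread between these libraries, which may be technical.

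RNA polymerase III transcribes short untranslated RNAs, among them the transfer RNAs, 5S ribosomal RNA, the U6 spliceosomal RNA and the RNA component of the signal recognition particle. TFIIIB, which holds TBP, BDP1 and either BRF1 or BRF2, places the polymerase at the start of these genes. BRF1 serves the transfer RNA and 5S genes and BRF2 serves genes of the U6 kind. MAF1 represses the polymerase, and the mTOR pathway is known to phosphorylate MAF1 and so to relieve this repression when nutrients are plentiful. That control acts on the protein, whereas the values here are messenger RNA levels.

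Library totals ran from 10510689 to 13690035 counts. The kidney line's markers VIM, KRT8, KRT18, NEFL, NEFM and PAX2 had counts in every library. Their summed level, mostly VIM, was 757 to 1013 CPM (the usual depth-scaled count, here on TMM-scaled library totals) in the libraries without Torin1 and 1241 to 1571 CPM with it. The 6 did not shift as one. Torin1 raised 5 and lowered 1 in starved and in 1 h fed cells, and raised 4 and lowered 1 in 4 h fed cells. Of all genes, 63.5%, 63.1% and 56% were called in these comparisons. The part of this shift in the results below was not tested. Summed immune markers reached at most 5.61 CPM, summed endothelial markers at most 1.75 CPM, and CD3E, PTPRC and CDH5 had 1, 5 and 2 counts over all libraries. Summed fibroblast markers lay between 8.92 and 44.4 CPM, mostly COL1A1. Where strand was ignored in counting, reads of neighbours on the opposite strand would add to a member: BRF2 shares 1629 exonic bases with ADGRA2, BRF1 shares 627 with BTBD6 and 417 with PACS2, POLR3G shares 260 with MBLAC2 and MAF1 shares 40 with SHARPIN. In bulk RNA, fewer cells that express a gene and less RNA per cell cannot be told apart.

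Most of the genes changed after 4 h of feeding, and no change was called after 1 h. After 4 h, MAF1, BRF1, POLR3B, POLR3C, POLR3E and POLR3G were higher than in starved cells, by 1.32-fold to 1.92-fold. POLR3D was lower by 1.52-fold and POLR3A by 1.18-fold. In all, 8 of 10 members were called by edgeR's quasi-likelihood test at an adjusted p under 0.05, beside 42.3% of all genes tested. The median log2 fold change was 0.42 over the members and 0.00 over all genes, with 23.2% of all genes called higher and 19.1% called lower. The 4 h fed and starved libraries did not overlap for 8 members, beside 49% of all genes. After 1 h of feeding edgeR called 0 of 10, beside 0.646% of all genes, and the members' log2 fold changes lay between −0.32 and 0.18 with SE up to 0.14. At an unadjusted p under 0.05, BRF2 was the 1 member that passed at 1 h, beside 9.28% of all genes. DESeq2 and limma-voom also called 0 members at 1 h. Between 1 h and 4 h of feeding 8 members were called, 6 higher and 2 lower, beside 39.8% of all genes (21.7% higher and 18.1% lower). The libraries did not overlap for 7 members, beside 43.9% of all genes. In this comparison POLR3A (−0.30) lost its call without 1 h fed replicate 3 (−0.18), 4 h fed replicate 1 (−0.27) or 4 h fed replicate 3 (−0.26). It also lost it when edgeR fitted only the groups compared (adjusted p 0.0564). POLR3G (0.37) lost its call without 1 h fed replicate 3 (0.28) or 4 h fed replicate 3 (0.27). That call also ended in edgeR with DESeq2's size factors (adjusted p 0.0549), no filter (0.0855) or only the groups compared (0.0729). The DESeq2 Wald test did not call it either (adjusted p 0.0511).

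Torin1 moved the members in both directions. In starved cells 4 members were higher and 4 lower, beside 63.5% of all genes called (33.9% higher and 29.6% lower). In 1 h fed cells 4 were higher and 3 lower, beside 63.1% (33.2% higher and 29.9% lower). In 4 h fed cells 1 was higher and 5 lower, beside 56% (27.4% higher and 28.6% lower). POLR3A and POLR3G were lower with Torin1 in all 3 states. The libraries without and with Torin1 did not overlap for 8 members in starved, 7 in 1 h fed and 6 in 4 h fed cells. Of all genes, 68.5%, 67.1% and 60.5% did not overlap in these 3 Torin1 comparisons. The share of all genes separated over more than 2 groups was not computed. These comparisons share their libraries with the feeding comparisons, so their values are set side by side and not correlated. With Torin1 present, feeding called 0 of 10 members at 1 h (0.402% of all genes) and 0 of 10 at 4 h (1.8%). At an unadjusted p under 0.05, 2 members passed in each of these, beside 11.08% of all genes at 1 h and 13.1% at 4 h. Both limma-voom and DESeq2 called 0 members in each.

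**Figure D1:**
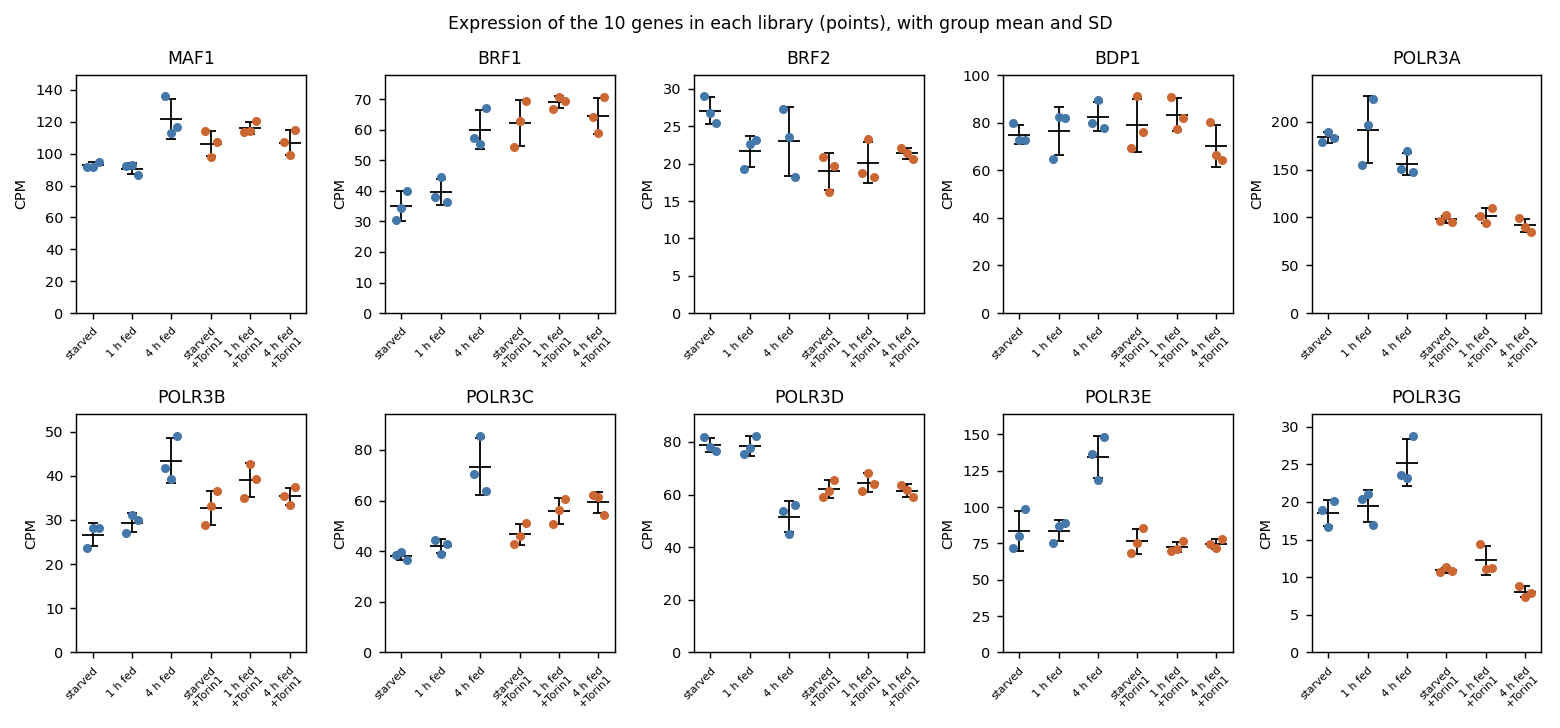
Level of each of the 10 genes in CPM (vertical axes, from 0) in every library, by group, with blue points for libraries without Torin1, orange points for libraries with it, and bars for the group mean and SD (n = 3). The POLR3A points with Torin1 lie between 85.2 and 109 CPM and those without it between 148 and 224 CPM, and the POLR3E points of 4 h fed cells lie at 119 to 148 CPM, above all others.

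MAF1, the repressor, had 91.6, 91.7 and 94.9 CPM in the starved libraries, 92.4, 92.6 and 86.9 CPM after 1 h of feeding, and 136, 113 and 117 CPM after 4 h. With Torin1 it had 114, 97.9 and 107 CPM in starved, 113, 114 and 121 CPM in 1 h fed and 107, 99.3 and 115 CPM in 4 h fed libraries. Every 4 h fed library without Torin1 lay above every starved and 1 h fed one, and the libraries with Torin1 overlapped between the 3 states. The log2 fold change at 4 h was 0.40 (SE 0.08, edgeR adjusted p 3.266e-04). Torin1 raised MAF1 by 0.36 (SE 0.08) in 1 h fed cells on the same scale and by 0.20 (SE 0.08, adjusted p 0.0419) in starved cells. The call in starved cells was lost when any 1 of 8 libraries was left out, namely any of the 3 starved ones, any of the 3 that were 1 h fed with Torin1, or starved Torin1 replicate 1 or 3 (log2 fold change 0.14 to 0.21, adjusted p 0.0507 to 0.196). It was also lost in edgeR with DESeq2's size factors (0.15, adjusted p 0.128), no filter (0.21, adjusted p 0.0674) or only the groups compared (0.16, adjusted p 0.0826). In 4 h fed cells the change with Torin1 was −0.19 (SE 0.08), which edgeR did not call (adjusted p 0.0556). DESeq2 and limma-voom did call it, with adjusted p values of 0.0473 and 0.0499.

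BRF1, the TFIIIB subunit of the transfer RNA genes, was lowest in starved cells, at 30.6, 34.4 and 40.1 CPM, and had 37.9, 44.4 and 36.5 CPM after 1 h of feeding. After 4 h it had 57.5, 55.5 and 67.3 CPM. With Torin1 it had 54.5, 62.8 and 69.6 CPM in starved, 66.9, 70.8 and 69.4 CPM in 1 h fed and 64.2, 58.8 and 70.7 CPM in 4 h fed libraries. All starved and 1 h fed libraries without Torin1 thus lay below all other libraries. BRF1 rose by 0.78 (log2, SE 0.11, adjusted p 1.52e-06) with 4 h of feeding, and Torin1 raised it by 0.83 (SE 0.11) in starved and 0.80 (SE 0.11) in 1 h fed cells. In 4 h fed cells the difference with Torin1 was 0.10 (SE 0.11, adjusted p 0.428), and with scaling by total counts it was 0.27 and called (adjusted p 0.0405).

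BRF2, the TFIIIB subunit for genes of the U6 kind, was low, with 16.3 to 29.03 CPM over the 18 libraries. Its starved libraries (25.5 to 29.03 CPM) lay above the starved libraries with Torin1 (16.3 to 20.9 CPM), and the log2 fold change was −0.51 (SE 0.14, adjusted p 0.00209). This was its only call in the 10 comparisons. The 4 h fed libraries spread from 18.2 to 27.3 CPM and overlapped with those of every other group. BDP1, the third subunit, was called in none of the 10 comparisons, and its group means lay between 70.4 and 83.4 CPM. With Torin1 in 4 h fed cells its log2 fold change was −0.23 (SE 0.11), and of the alternatives run it was called only without 4 h fed Torin1 replicate 1 (−0.34) or 1 h fed replicate 1 (−0.23). The width of its range, 0.25 on the log2 scale, is at the 2.6th percentile of all genes, whereas that of POLR3G, 1.63, is at the 78.9th.

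TBP, the remaining part of TFIIIB and shared with the other polymerases, fell with Torin1 in starved cells by 1.34 on the log2 scale (SE 0.11). It belongs to a list of 8 genes for TBP and the factors of U6-like promoters, of which feeding for 4 h raised 2 and lowered 4, beside 42.3% of all genes called, and Torin1 in starved cells raised 2 and lowered 3, near the 63.5% of all genes called. ZNF143, an activator of such promoters, fell by 2.60 (SE 0.15) with 4 h of feeding and by 2.27 (SE 0.14) with Torin1 in starved cells. Its group means were 101 and 108 CPM in starved and 1 h fed cells and 15.4 to 20.8 CPM in the other 4 groups. SNAPC3, a subunit of the complex that binds these promoters, rose by 1.41 (SE 0.14) with 4 h of feeding. The list's median log2 fold change was −0.31 at 4 h of feeding and −0.32 with Torin1 in starved cells, against 0.00 and 0.09 over all genes.

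POLR3A, the largest subunit and part of the catalytic centre, had 179, 189 and 183 CPM in starved libraries, 155, 196 and 224 CPM after 1 h and 151, 169 and 148 CPM after 4 h of feeding. With Torin1 it had 96.6, 102 and 95.7 CPM in starved, 102, 93.9 and 109 CPM in 1 h fed and 99.3, 90.3 and 85.2 CPM in 4 h fed libraries. No library with Torin1 reached the lowest library without it. Torin1 lowered POLR3A by 1.87-fold in starved cells (log2 −0.91, SE 0.10, adjusted p 2.417e-09), 1.89-fold in 1 h fed cells and 1.70-fold in 4 h fed cells. Its fall with 4 h of feeding was small (log2 −0.24, SE 0.10, adjusted p 0.0495). That call was lost on leaving out any 1 of 15 of the 18 libraries, all but 1 h fed replicates 1 and 3 and 4 h fed replicate 2 (−0.26 to −0.20, adjusted p 0.0517 to 0.161) and with limma-voom (adjusted p 0.0531).

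POLR3B, the other subunit of the catalytic centre, moved the other way from POLR3A with 4 h of feeding and with Torin1 in starved and 1 h fed cells. It had 23.6 to 28.3 CPM in starved and 39.2 to 49.1 CPM in 4 h fed libraries, a log2 rise of 0.70 (SE 0.12, adjusted p 1.3e-05). Torin1 raised it by 0.30 (SE 0.12) in starved and 0.41 (SE 0.12) in 1 h fed cells and lowered it by 0.29 (log2 −0.29, SE 0.11) in 4 h fed cells. The calls in starved and 4 h fed cells each ended when any 1 of 3 libraries was left out, with values of 0.21 to 0.29 and of −0.30 to −0.20. In starved cells these were starved replicate 1 and replicates 2 and 3 with Torin1, and in 4 h fed cells they were replicate 3 without and replicates 1 and 2 with Torin1. DESeq2's size factors ended the call in starved cells too (0.25, adjusted p 0.0696), as did fitting only the groups compared (0.26, adjusted p 0.0540). The call in 4 h fed cells ended with total counts (−0.13, adjusted p 0.334), with no filter (−0.27, adjusted p 0.0711) and with only the groups compared (−0.26, adjusted p 0.0524).

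POLR3C belongs to the 3-subunit module, with POLR3F and POLR3G or its paralog POLR3GL, that takes part in initiation. It had 38.4, 39.7 and 36.4 CPM in starved, 44.3, 38.9 and 42.7 CPM in 1 h fed and 70.6, 85.7 and 63.9 CPM in 4 h fed libraries. With Torin1 its range was 42.9 to 51.2 CPM in starved, 50.6 to 60.6 CPM in 1 h fed and 54.4 to 62.0 CPM in 4 h fed libraries. Its 1.92-fold rise at 4 h (log2 0.94, SE 0.11, adjusted p 1.991e-08) was the largest feeding response of the 10 genes. Torin1 raised POLR3C by 0.29 (SE 0.11) in starved and 0.41 (SE 0.11) in 1 h fed cells and lowered it by 0.31 (log2 −0.31, SE 0.10) in 4 h fed cells. Leaving out starved replicate 3 or starved Torin1 replicate 3 ended the call in starved cells (0.25 and 0.22), as did DESeq2's size factors (0.24, adjusted p 0.0603). Leaving out 4 h fed replicate 2 or 4 h fed Torin1 replicate 3 ended that in 4 h fed cells (−0.16 and −0.25), as did scaling by total counts (−0.14, adjusted p 0.235).

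POLR3G had the widest range of the 10. It had 18.9, 16.7 and 20.1 CPM in starved, 20.4, 21.0 and 17.0 CPM in 1 h fed and 23.6, 23.2 and 28.8 CPM in 4 h fed libraries. With Torin1 it had 10.7, 11.3 and 10.8 CPM in starved, 14.4, 11.1 and 11.2 CPM in 1 h fed and 8.82, 7.38 and 7.92 CPM in 4 h fed libraries. The 9 libraries with Torin1 all lay below the 9 without it. Within single states, 60.5% to 68.5% of all genes did not overlap between libraries without and with Torin1. Torin1 lowered POLR3G by 3.13-fold in 4 h fed cells (log2 −1.65, SE 0.15, adjusted p 1.347e-10), against 1.70-fold in starved and 1.59-fold in 1 h fed cells. Its rise with 4 h of feeding (0.44, SE 0.14, adjusted p 0.0126) ended when 4 h fed replicate 3 (0.34) or starved replicate 2 (0.37) was left out.

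POLR3GL, the paralog that takes the place of POLR3G in a second form of the enzyme, went up where POLR3G went down. Torin1 raised it by 0.70 (SE 0.13), 0.85 (SE 0.13) and 0.95 (SE 0.14) in the 3 states in the order starved, 1 h fed, 4 h fed (log2 scale), and feeding for 4 h gave −0.15 (SE 0.14), which was not called. On the scale of CPM per kb of transcript, POLR3G had 8.60 and POLR3GL 19.9 in starved cells, 11.4 and 17.6 in 4 h fed cells, and 4.24 and 35.8 in 4 h fed cells with Torin1. The ratio of POLR3G to POLR3GL per kb, taken within each library and chosen after the values were seen, is therefore given as a description without a test. It was 0.382, 0.500 and 0.437 in starved, 0.394, 0.527 and 0.423 in 1 h fed and 0.583, 0.589 and 0.787 in 4 h fed libraries. With Torin1 it lay between 0.101 and 0.183 in all 9 libraries.

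**Figure D2:**
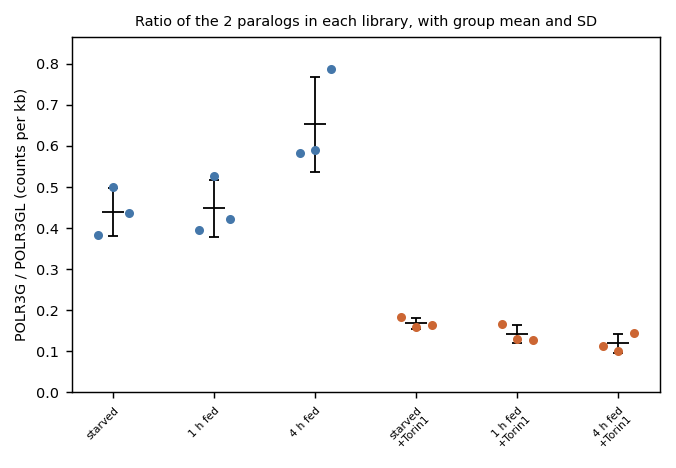
Ratio of POLR3G to POLR3GL counts per kb of transcript (vertical axis, from 0) in every library by group, in blue without and in orange with Torin1, with bars for the group mean and SD (n = 3). All 9 libraries with Torin1 lie at or below 0.183, and those without it lie at or above 0.382.

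POLR3D and POLR3E form a pair of subunits that resembles the general factor TFIIF, and they moved in opposite directions with feeding. POLR3D had 81.7, 78.0 and 76.4 CPM in starved, 75.3, 77.6 and 82.5 CPM in 1 h fed and 53.7, 45.2 and 56.1 CPM in 4 h fed libraries. With Torin1 all 9 libraries lay between 59.1 and 68.3 CPM, below the starved and 1 h fed libraries and above the 4 h fed ones. POLR3D fell by 1.52-fold with 4 h of feeding (log2 −0.61, SE 0.09, adjusted p 2.023e-06). Torin1 lowered it in starved (−0.34, SE 0.09) and 1 h fed cells (−0.28, SE 0.09) and raised it in 4 h fed cells (0.25, SE 0.09). The last call ended without 4 h fed replicate 2 (0.19) or without 4 h fed Torin1 replicate 1 (0.22), and that in 1 h fed cells ended with scaling by total counts (−0.17, adjusted p 0.100).

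POLR3E had 71.9, 79.8 and 98.9 CPM in starved, 75.2, 87.1 and 89.2 CPM in 1 h fed and 136, 119 and 148 CPM in 4 h fed libraries. With Torin1 its 9 libraries lay between 68.1 and 85.4 CPM. The 4 h fed libraries without Torin1 stood above all others. Feeding for 4 h raised POLR3E by 1.61-fold (log2 0.69, SE 0.11, adjusted p 3.43e-06), and Torin1 lowered it by 1.80-fold in 4 h fed cells (log2 −0.85, SE 0.11, adjusted p 5.081e-08). In starved and 1 h fed cells the differences with Torin1, −0.13 and −0.21 (SE 0.11 each), were not called by edgeR. With DESeq2's size factors the difference at 1 h was called (−0.25, adjusted p 0.0386), as it was without 1 h fed replicate 1 (−0.29).

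**Figure D3:**
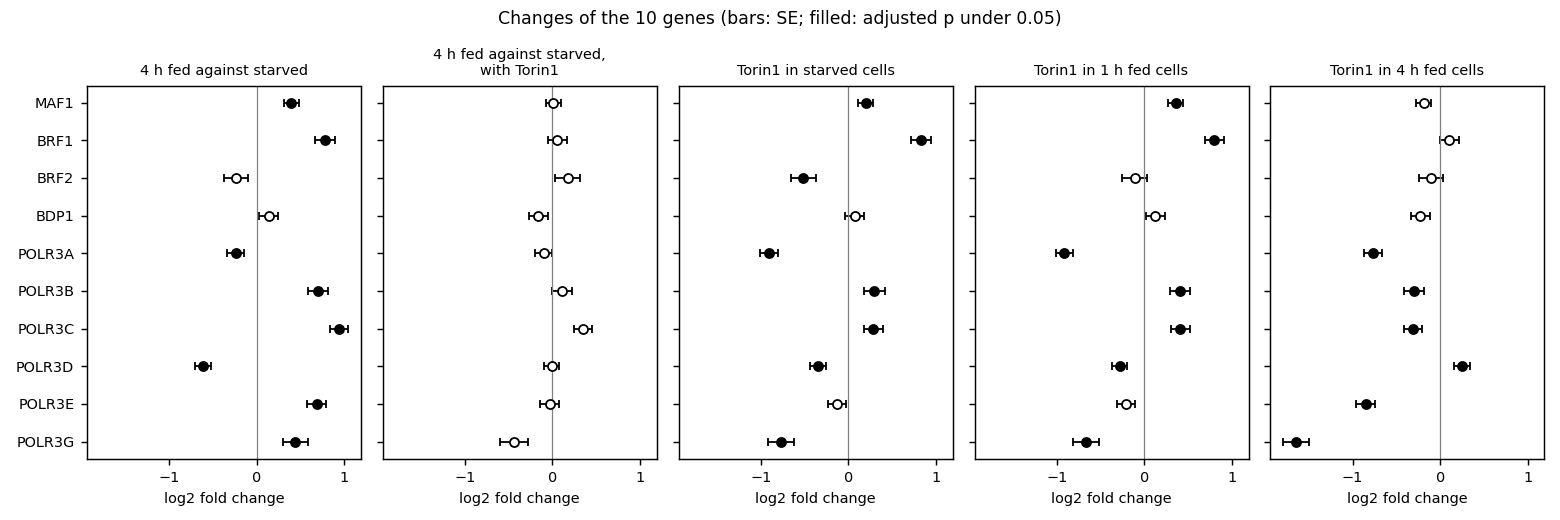
Log2 fold change (horizontal axes) of the 10 genes in 5 comparisons, with bars for the SE and filled points for an adjusted p under 0.05 (edgeR quasi-likelihood test). At 4 h of feeding 8 points are filled without Torin1 and 0 with it, and POLR3A and POLR3G lie left of 0 in all 3 Torin1 panels.

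The effect of 4 h of feeding was compared between cells without and with Torin1 by an interaction term, which is the log2 fold change with Torin1 minus that without. It was called for 7 of 10 members, 6 lower and 1 higher, beside 25.8% of all genes (16% lower and 9.74% higher). The largest was that of POLR3G at −0.88 (SE 0.21, adjusted p 0.00193), whose change with 4 h of feeding was 0.44 without Torin1 and −0.44 with it. BRF1 and POLR3E had −0.72 (SE 0.16 and 0.15), POLR3B and POLR3C had −0.59 (SE 0.16 and 0.15) and MAF1 had −0.39 (SE 0.12, adjusted p 0.0154). POLR3D, which fell with feeding, had 0.60 (SE 0.13), and POLR3A, which also fell, had 0.14 (SE 0.14) and was not called. BRF2 had 0.41 (SE 0.20), called only without 4 h fed replicate 1 (0.55). For MAF1 the call ended without 4 h fed replicate 1 (−0.30), without 4 h fed Torin1 replicate 2 (−0.34) or without starved Torin1 replicate 1 (−0.33). At 1 h the interaction was called for 0 of 10 members by edgeR, DESeq2 and limma-voom, beside 0.067% of all genes by edgeR. There 0 members had an unadjusted p under 0.05, beside 6.53% of all genes.

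POLR3D also changed in which of its transcripts was counted. In GENCODE release 29 the isoforms POLR3D-201 and POLR3D-202 have the same coding length of 1194 bases, and they differ in length, 1931 against 5494 bases, with 652 and 4085 bases after the coding part. POLR3D-201 held 59.8%, 59.0% and 57.0% of the gene's isoform counts in the starved libraries and 20.5%, 8.34% and 9.20% in the starved libraries with Torin1. POLR3D-202 held 14.1%, 21.3% and 15.6% without and 56.5%, 71.8% and 69.9% with Torin1. The groups did not overlap in either isoform, and the share of all isoforms without overlap was not computed. The test of isoform use was called for POLR3D in starved cells (diffSpliceDGE Simes adjusted p 3.068e-04), 1 of the 9 members with more than 1 isoform tested, beside 5.23% of all genes with such a test. Relative to the gene, POLR3D-201 fell by 1.53 on the log2 scale and POLR3D-202 rose by 1.36.

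In 4 h fed cells without Torin1 the shares of POLR3D-201 were 50.5%, 40.9% and 22.2%, a wide spread, and those of POLR3D-202 were 23.6%, 35.3% and 51.6%. In the 9 libraries with Torin1 POLR3D-201 held 8.34% to 24.7%, a range that includes the lowest 4 h fed library without it. With Torin1 in 4 h fed cells POLR3D was not called (diffSpliceDGE Simes adjusted p 0.906). Isoform use with Torin1 in 1 h fed cells was not tested. The change of use with 4 h of feeding was not called for any member (1.34% of all genes called), and POLR3D had an adjusted p of 0.329. At an unadjusted p under 0.05, the members that passed at 4 h of feeding were BRF1, POLR3B and POLR3D. The share of all genes that passed in this way was not computed. With Torin1 in 4 h fed cells POLR3B was called (adjusted p 0.0404, beside 3.55% of all genes). There POLR3B-202 had 0 counts in the 3 libraries without Torin1 and 47, 85 and 57 with it. Its counts did not follow Torin1 over all groups. The 3 starved libraries with Torin1 had 0 counts, and the 1 h fed ones with Torin1 had 51, 43 and 40. Without Torin1, 1 h fed replicate 1 had 70 and starved replicate 2 had 19, and the other starved and 1 h fed libraries had 0. No single POLR3B isoform passed adjustment over all isoforms (POLR3B-202, adjusted p 0.0535). The POLR3B call ended with a replicate block and in 8 of the 18 fits that left out 1 library, those without 4 h fed replicate 2 or 3 or without any 1 fed library with Torin1. RSEM divides reads between overlapping transcripts, so isoform counts are estimates, and POLR3A, with a single isoform tested, has no such test.

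**Figure D4:**
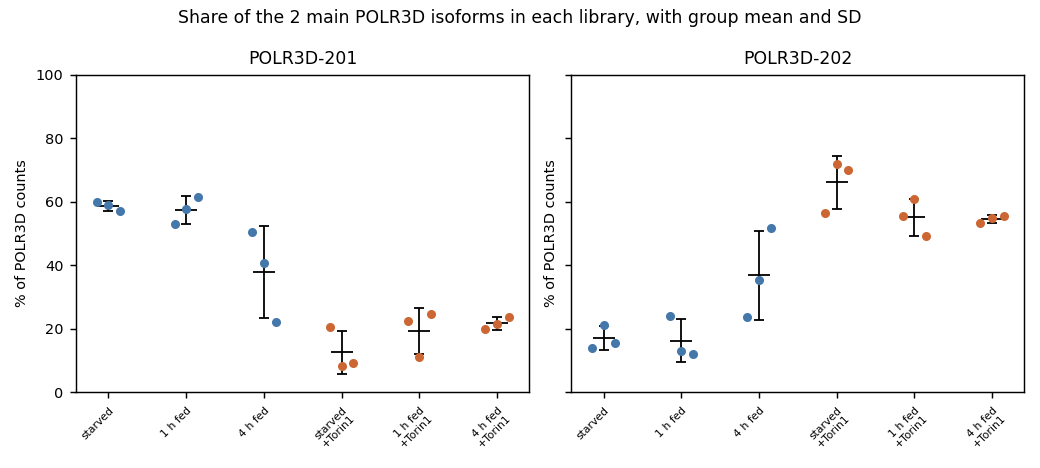
Share of the counts of POLR3D (vertical axes, percent) held by POLR3D-201 and by POLR3D-202 in every library by group, in blue without and in orange with Torin1, with bars for the group mean and SD (n = 3). In starved cells POLR3D-201 goes from 57.0% or more without Torin1 to 20.5% or less with it, and POLR3D-202 from 21.3% or less to 56.5% or more.

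Per kb of transcript, MAF1 had the highest level of the 10 genes in each of the 6 groups, 64.7 CPM per kb in starved and 84.0 in 4 h fed cells. In starved cells it was followed by POLR3D (53.3), POLR3E (35.6), POLR3A (31.3), POLR3C (27.0), BRF1 (13.7), BRF2 (12.8), BDP1 (8.90), POLR3G (8.60) and POLR3B (6.92). BRF1 overlapped with BRF2 between libraries, and BDP1 with POLR3G, whereas the other neighbours in this order did not overlap. With Torin1 POLR3G was the lowest in all 3 states, at 5.61, 5.04 and 4.24 CPM per kb. Dividing instead by the length of 1 main isoform, that with the most counts over all libraries, moved 31 of the 60 levels by more than 1 SD. It put POLR3D at 15.9 in starved cells. The isoform used there was POLR3D-202 (5494 bases), which held a mean of 17.0% of the POLR3D counts in starved cells. The shorter POLR3D-201 held 58.6% there, so 15.9 is not the level by the main isoform of starved cells.

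The promoters of these genes are shown because several members moved together with feeding. RefSeq windows (GRCh38.p14) were held for 6 of the 10, and the 250 bases before each start were searched on both strands for CACGTG, the E-box bound by MYC and by TFEB, for TGACGTCA, the cyclic AMP response element, and for TGATGNAA, a form of the element bound by ATF4. CACGTG lay in 2 of the 6 (POLR3A, 35 bases before the start, and POLR3C, 196 before), beside 7.73% of all genes with a window. TGACGTCA lay in 1, BDP1, 72 bases before the start, beside 2.03%, and TGATGNAA in 0, beside 3.89%. Extending the search to the 50 bases after the start, a choice made after the matches were seen, added CACGTG at the start of POLR3E and gave 3 of 6, beside 8.77%. Each stretch is written 5′ to 3′ on the gene's strand with the motif in capitals.
POLR3A, chr10:78029518-78029577, minus strand: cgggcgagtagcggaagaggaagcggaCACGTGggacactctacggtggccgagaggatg
POLR3C, chr1:145823977-145824036, plus strand: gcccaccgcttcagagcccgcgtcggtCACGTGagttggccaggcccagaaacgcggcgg
POLR3E, chr16:22297396-22297425, plus strand: cccgctccccccCACGTGtccgccggagtt
BDP1, chr5:71455553-71455612, plus strand: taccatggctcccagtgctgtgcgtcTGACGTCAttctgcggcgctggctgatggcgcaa
The 3 genes with CACGTG did not share a pattern: POLR3C and POLR3E rose with 4 h of feeding and POLR3A did not, and BDP1 was called in no comparison. A match of letters is a description of the window and does not show that a factor binds there.

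The 5 other subunits found only in RNA polymerase III, a list read beside the members, had log2 fold changes of up to 2.48. Feeding for 4 h raised 3 and lowered 1 of the 5, beside 23.2% and 19.1% of all genes. CRCP, a subunit of the stalk, went from 14.6 CPM (SD 1.56, n = 3) in starved to 81.5 CPM (SD 4.65, n = 3) in 4 h fed cells, a log2 rise of 2.48 (SE 0.13). POLR3F, the partner of POLR3C, rose by 2.06 (SE 0.15), and POLR3K fell by 0.57 (log2 −0.57, SE 0.10). In 4 h fed cells Torin1 lowered 4 of the 5 and raised POLR3GL, beside 28.6% of all genes lowered and 27.4% raised. Of the 5 subunits common to all 3 nuclear polymerases, Torin1 lowered 4 in the starved and 4 in the 1 h fed state and 5 after 4 h (29.6%, 29.9% and 28.6% of all genes were lowered), with medians of −0.80, −0.78 and −1.0 on the log2 scale. Of the pair shared with RNA polymerase I, POLR1C fell by 1.07 (SE 0.11) with Torin1 in 4 h fed cells and POLR1D rose by 0.54 (SE 0.08).

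TFIIIC, which recognises the internal promoter of transfer RNA genes, and TFIIIA, encoded by GTF3A, form a list of 7 genes. Feeding for 4 h raised 4 of them and lowered 0 (23.2% and 19.1% of all genes), with GTF3C3 at 1.41 (SE 0.10), GTF3C5 at 0.47 (SE 0.08) and GTF3C2 at 0.43 (SE 0.08). Torin1 in 4 h fed cells lowered 6, beside 28.6% of all genes, and raised GTF3C3 by 0.56 (SE 0.09). GTF3A, the factor of the 5S gene, fell with Torin1 by 0.48 (SE 0.09) in starved and 0.41 (SE 0.09) in 4 h fed cells. Of 7 genes for kinases and phosphatases linked to MAF1, feeding for 4 h raised 3 and lowered 0, a count near the 42.3% of all genes called: the casein kinase subunit CSNK2A2 (1.11, SE 0.08), RPTOR of mTOR complex 1 (0.99, SE 0.11) and MTOR itself (0.31, SE 0.08).

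Genes that process and export transfer RNA precursors are a list of 20. Feeding for 4 h raised 11 and lowered 1 (23.2% and 19.1% of all genes), with a median of 0.35 against 0.00 over all genes, and those raised included the 3′ end nuclease ELAC2 (0.76, SE 0.08) and TSEN15 (1.11, SE 0.14). Torin1 lowered 12 and raised 5 in starved cells (29.6% and 33.9% of all genes), and lowered 14 and raised 0 in 4 h fed cells (28.6% and 27.4%), with medians of −0.53 and −0.83. In 4 h fed cells the exportin XPOT fell by 1.61 (SE 0.08), SSB, the La protein that binds new transcripts, by 1.06 (SE 0.08) and POP1 of ribonuclease P by 1.44 (SE 0.13).

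Transcripts made by RNA polymerase III were a list of 20, of which 13 were listed at 0 in all libraries and 5 had enough counts to be tested. RN7SL1, the RNA of the signal recognition particle, had 106 to 332 CPM and overlapped between all groups, and its near-identical copy RN7SL2 may share its reads. RN7SK, which holds back the elongation factor P-TEFb, had 4.17, 4.01 and 6.61 CPM in starved, 43.8, 16.4 and 22.0 CPM in 1 h fed and 14.5, 11.7 and 39.7 CPM in 4 h fed libraries. Its rise at 4 h (log2 2.15, SE 0.60) was called, and that call ended without 4 h fed replicate 3 (1.41, adjusted p 0.0654). It also ended when edgeR fitted only the groups compared (2.14, adjusted p 0.0546). After 1 h of feeding 0 of the 5 tested transcripts were called, RN7SK included, beside 0.646% of all genes. These values count RNA that entered the libraries, and how short RNAs were retained is not given in the sources used here.

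Likeness of pattern was measured by Pearson's correlation of the 6 group means of log2 CPM, as a description of means that share their libraries. Each value rests on 6 points, and the 3 highest among 11692 genes compared are named. How many genes had values about as high was not counted. Closest to POLR3G were POLR1C, a subunit shared by RNA polymerases I and III (0.997), TRAF4 (0.996) and ENSG00000272163 (0.994). Closest to POLR3A were CCNJ, CIP2A and CUL3 (0.999 each for CIP2A and CUL3), and closest to BRF1 were SMARCD1 (0.999), NKIRAS2 (0.998) and MYO5A (0.998).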

How the data were processed

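Per the labels' protocols, total RNA of HEK-293E cells was sequenced and reads were aligned with STAR; RSEM and DESeq2 are named in the submitters' processing notes, without versions. Although the labels give a C. elegans build, the identifiers are human, and which human build, annotation and strand setting were used was not given in the sources used here. The deposited gene and isoform tables hold expected counts, which the authors did not scale to a common total. Library totals were 10510689 to 13690035 counts, and a count of 0 allows up to 0.219 to 0.285 CPM (the usual depth-scaled count) at 3 counts, counting error only.

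Members were matched by symbol. Counts were rounded, genes kept by filterByExpr (minimum count 10; 16414 genes) and fitted as 6 group means over all 18 libraries with edgeR 4.0.16 in R 4.3.3 (TMM scaling, robust quasi-likelihood F tests, 12 residual degrees of freedom). P values were adjusted by Benjamini-Hochberg over all genes tested in a comparison, and genes under 0.05 were called. Errors are SE for log2 fold changes and SD for levels. Isoform use was tested with diffSpliceDGE (48663 isoforms of 10700 genes, Simes method), with isoforms named from GENCODE release 29 (GRCh38). Levels per kb divide isoform counts by isoform length.

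The members, lists, motifs and named genes were chosen with earlier results of these data known. The 10 members are described whatever their values, other genes are up to 3 called genes of smallest p per list of the same pathway, plus ZNF143, GTF3A and POLR3GL, isoforms are those with at least 10% of a member's counts in a group, and likeness names the 3 genes with the highest correlation to each of the 3 members of widest range. Alternatives were DESeq2 1.42.0 size factors and Wald test, limma-voom (limma 3.58.1), total counts, 2 other filters, the compared groups alone, a replicate block and leaving out each library. On simulated counts, the test of 4 h feeding found 48.4% of 1.5-fold, 72.9% of 2-fold and 97.1% of 4-fold changes, among 15448 genes. Only 62, 70 and 68 genes were changed by these folds, whereas 42.3% of genes were called in the data. The adjustment of p values depends on how many genes change, so these shares need not hold for the real comparison.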

Additional observations from a re-analysis of the deposited data

Results flagged for a closer look

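For 7 of the 10 genes the effect of 4 h of feeding differed between cells without and with Torin1 by the interaction term of the edgeR fit. The differences were −0.39 for MAF1, −0.72 for BRF1, −0.59 for POLR3B, −0.59 for POLR3C, −0.72 for POLR3E and −0.88 for POLR3G on the log2 scale. POLR3D, which fell with feeding in the absence of Torin1, had a difference of 0.60. The interaction was called for 25.8% of all genes tested.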

How the results depend on the processing

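Of the calls on members, the number with Torin1 in starved cells fell from 8 to 5 both with DESeq2's size factors in edgeR and with the DESeq2 Wald test, where MAF1, POLR3B and POLR3C were no longer called, and was 5 to 8 when 1 library was left out (5 without starved Torin1 replicate 3). Fitting only the groups compared gave 1 member called for 4 h of feeding with Torin1 in place of 0. Members with changed isoform use were 0 to 1 for 4 h of feeding, 1 to 2 for Torin1 in starved cells and 0 to 1 for Torin1 in 4 h fed cells when 1 library was left out. Correlations between the deviations of same-numbered libraries were −0.11 to 0.16. The best correlations with a library of another number were −0.06 to 0.11. Neither kind was the higher throughout. The same-numbered value was the higher in every replicate of the feeding comparisons with Torin1 present. Whether the replicate numbers pair the libraries was not tested. With the replicate block, isoform use was called for 0 members for Torin1 in 4 h fed cells in place of 1, members called rose from 7 to 8 for Torin1 in 1 h fed cells and from 6 to 7 in 4 h fed cells, and the other counts of members called were the same. The cause of these changes was not tested. Values not called changed sign for BDP1 with Torin1 in starved cells (−0.045 without starved Torin1 replicate 2), for POLR3E with Torin1 in starved cells (0.0059 with total counts, and −0.23 to 0.0049 with 1 library left out, the latter without starved replicate 3), and for BRF2 with Torin1 in 1 h fed (0.0046 with total counts) and 4 h fed cells (0.059 with total counts, and −0.25 to 0.034 with 1 library left out, the latter without 4 h fed replicate 1). No called value of a member changed sign under any alternative run. Scaling by total counts raised the median of all genes with Torin1 from 0.09 to 0.23 in starved, from 0.06 to 0.17 in 1 h fed and from 0.02 to 0.19 in 4 h fed cells, and the share of calls that were higher in 4 h fed cells from 49% to 62.5% (members 2 higher and 3 lower, in place of 1 and 5).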
